A study of Mus musculus with 19 samples.

Results

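The genes Kcnn3, Umodl1, Hic1, Spink8, Efhd1, Stard5, Mfsd12, Slc2a9 and Asb10, which are little studied in the thymus, were described in single cells of the early mouse thymus primordium. They are 9 of the 54179 genes of the deposited count table, and 9 of the 21964 protein-coding ones. They were picked from their levels in these same libraries, because they lay near 0 on the plates of E10.5 (E, embryonic day) and were present on every plate of E12.5. Their difference between the stages is therefore given as a description with no test. The choice used whole plates and not the kinds of E12.5 cell within them, and levels between these kinds were tested. The libraries came from wild type C57BL/6 embryos. EPCAM+PLET1+ cells, the surface markers of early thymic epithelial progenitors, were sorted singly from dissected primordia into 4 plates at E10.5 (a to d) and 4 plates at E12.5 (a, c, d, e). Another E12.5 plate, b, was sequenced in a single run and lies outside the count table, so the choice of genes did not use it. It is given beside the others and enters no mean.

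The thymus and the parathyroid glands arise together from the third pharyngeal pouch. In the thymus domain the transcription factor FOXN1 switches on the programme of thymic epithelial cells (TEC), among them genes for antigen processing such as Psmb11 and Prss16 and the chemokine Ccl25. In the parathyroid domain GCM2 drives genes such as parathyroid hormone (Pth), and chromogranin A (Chga) marks its secretory granules. Cells rich in keratin 5 (Krt5) are associated with the progenitors of medullary TEC. None of the 9 genes belongs to these textbook programmes. Kcnn3 encodes a potassium channel opened by intracellular calcium and Efhd1 a calcium-binding protein of mitochondria. Umodl1 encodes a protein with a zona pellucida domain related to uromodulin, and Spink8 a Kazal-type inhibitor of serine proteases. Hic1 encodes a zinc finger repressor of transcription. Stard5 encodes a START domain carrier of sterols, Mfsd12 a transporter of lysosomes and melanosomes that takes up cysteine, and Slc2a9 a transporter of urate. Asb10 encodes an adaptor with ankyrin repeats and a SOCS box, the part that binds a ubiquitin ligase.

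Of 733 wells in the table, 711 passed the limits of the methods, 356 at E10.5 and 355 at E12.5, with 85 to 92 cells per plate. A plate of the table held between 14981265 and 20106286 reads. Plate b at E12.5 had 8271865 reads and 92 cells. Molecules are counts of molecular indices, corrected within a run for copies made by PCR and for sequencing errors. Where both runs of a plate were added, a molecule read in both is counted in each. The plates share their well barcodes, with 89 of 92 wells present on all 8 plates, so a well is named only together with its plate. Levels are given as CPM, counts of a gene scaled to the protein-coding total after its cells were added up, for each plate or each class within it. They are compared for 1 gene at a time, never between genes. A plate's level does not separate how many cells held a gene from how much each held, so shares of cells are given too. No doublets were called, since cells were sorted singly.

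The 9 genes took different forms of near 0 at E10.5. Slc2a9 and Asb10 had no read in any of the 356 E10.5 cells, which allows a share of cells with a read of up to 0.843% (3 counts of the total, for counting error only). Umodl1, Spink8 and Efhd1 had 2 reads each and Hic1 had 3, with no molecule in the first run. Kcnn3, Mfsd12 and Stard5 were low but present. Kcnn3 stood at 13.4, 5.43, 5.82 and 4.73 CPM across the E10.5 plates (a to d in order), and a single cell gave 44.4% of its E10.5 reads. Mfsd12 stood at 14.7, 10.4, 10.8 and 5.78 CPM, and Stard5 at 20.04, 21.6, 27.3 and 19.7 CPM. Stard5 was the most widely spread of these at E10.5, with a molecule in 27 of 356 cells on all 4 plates, against 14 cells for Mfsd12 and 8 for Kcnn3.

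At E12.5 every gene was present on every plate. Kcnn3 was measured at 469, 560, 558 and 529 CPM on plates a, c, d and e, a mean of 529 ± 42.3 CPM (SD, n = 4 plates) against 7.34 ± 4.04 CPM at E10.5. Stard5 was measured at 350, 311, 264 and 285 CPM, a mean of 303 ± 36.8 against 22.2 ± 3.54. Mfsd12 was measured at 254, 223, 224 and 217 CPM, a mean of 229 ± 16.4 against 10.4 ± 3.66. These 3 genes varied little between the E12.5 plates. Umodl1 varied more, with 147, 72.1, 166 and 111 CPM, a mean of 124 ± 41.2. Hic1 was at 117, 116, 170 and 109 CPM, a mean of 128 ± 28.2, with plate d above the others. For Efhd1 the plates lay closer together than for Spink8. Efhd1 was at 82.9, 62.9, 75.6 and 67.6 CPM, a mean of 72.2 ± 8.81. Spink8 was at 68.2, 92.9, 44.9 and 62.3 CPM, a mean of 67.0 ± 19.9. Slc2a9 was at 20.5, 18.2, 38.2 and 41.3 CPM, a mean of 29.6 ± 11.9, so that plates a and c lay at about the same level and below d and e. Asb10 was at 5.91, 22.2, 15.7 and 24.0 CPM, a mean of 16.9 ± 8.18, and plate a was the low one.

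Plate b of E12.5, which the choice of genes did not use, held all 9. Its levels were 483 CPM for Kcnn3, 161 for Umodl1, 116 for Hic1, 90.0 for Spink8, 72.2 for Efhd1 and 296 for Stard5, each inside the range of the other E12.5 plates. Mfsd12 at 172 CPM and Slc2a9 at 11.8 CPM lay below that range, and Asb10 at 33.2 CPM lay above it. All 9 lay above every E10.5 plate.

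**Figure D1:**
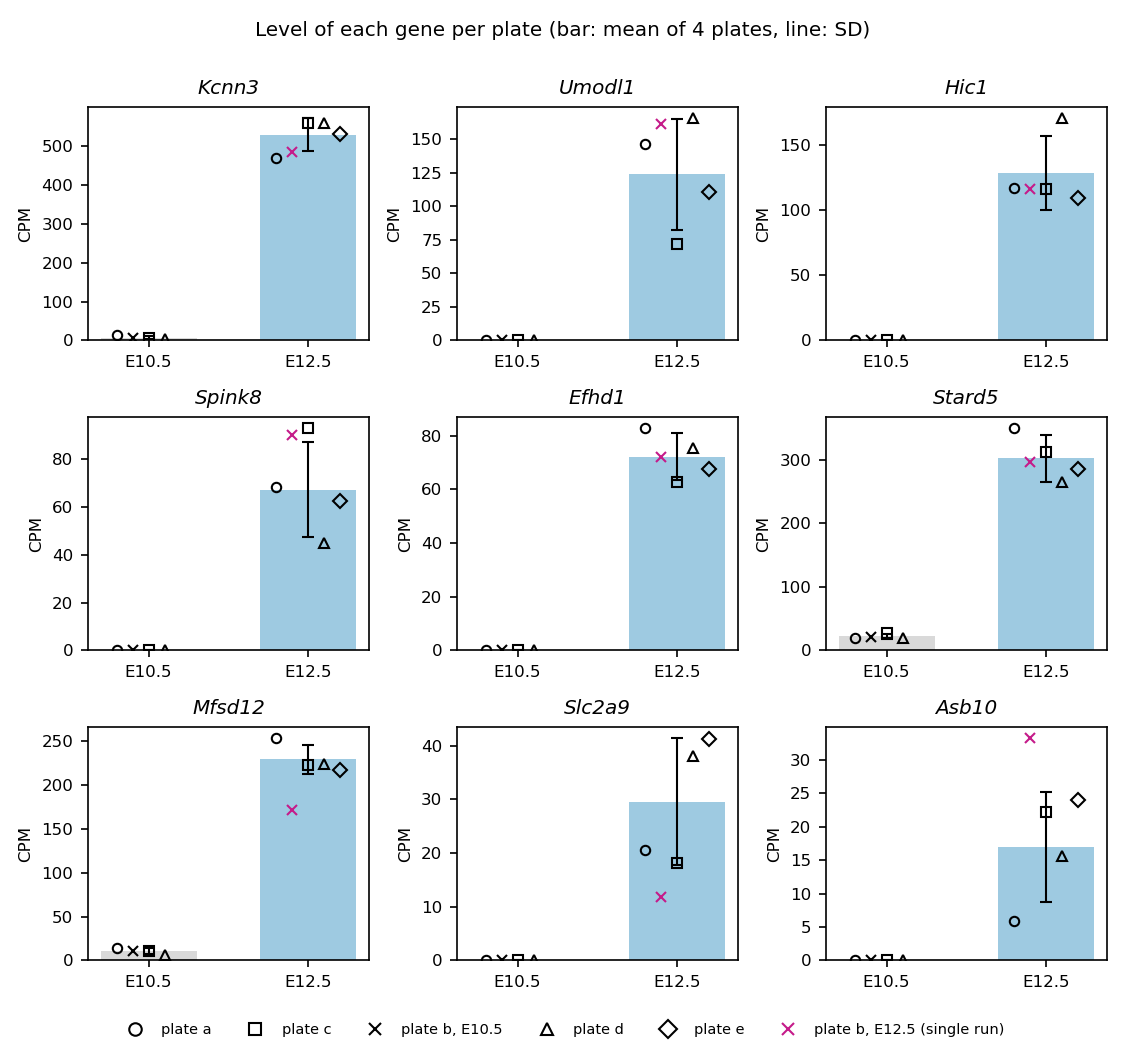
Level of each of the 9 genes in CPM (vertical axis, linear, its own scale per gene) on the plates of E10.5 and E12.5. Bars are the mean of the 4 plates of the count table and lines their SD. Black symbols are these plates, and the magenta cross is E12.5 plate b. The E10.5 plates lie at or near 0 and every E12.5 plate lies above them.

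Of 14571 protein-coding genes over 2 CPM in at least 2 cells, 51 had at most 1 CPM on every E10.5 plate and at least 5 CPM on every E12.5 plate, and 6 of the 9 genes were among these (Umodl1, Hic1, Spink8, Efhd1, Slc2a9 and Asb10). At most 30 CPM on every E10.5 plate and at least 200 CPM on every E12.5 plate held for 13 genes, among them Kcnn3, Stard5 and Mfsd12. These limits were set after the values were known. In the comparison of all genes between stages, 3.8% of 11499 genes were called higher at E12.5 and 2.44% lower (edgeR's quasi-likelihood test, Benjamini-Hochberg adjusted p under 0.05), and the plates of 8.59% did not overlap, with E12.5 higher. Nothing is read from the members' own values in that comparison, since it was used to pick them.

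The share of cells that held each gene differed widely. A read of Kcnn3 was found in 271 of 355 E12.5 cells (76.3%, exact 95% interval 71.6 to 80.7%), and a molecule in the first run in 184 (51.8%, 46.5 to 57.1%). Stard5 was as widespread. It had a molecule in 186 cells (52.4%, 47.1 to 57.7%), Mfsd12 in 143 (40.3%, 35.1 to 45.6%), Hic1 in 138 (38.9%, 33.8 to 44.2%) and Umodl1 in 97 (27.3%, 22.8 to 32.3%). The other 4 genes were in fewer cells. Efhd1 had a molecule in 49 cells (13.8%, 10.4 to 17.8%). Spink8, Slc2a9 and Asb10 were in the fewest, with 30, 29 and 27 cells. The intervals cover counting error only. Few molecules lay behind most of these cells: 77 of the 184 cells with Kcnn3 had 1 molecule, as did 27 of 29 with Slc2a9 and 24 of 27 with Asb10, and no cell had more than 2 molecules of Slc2a9.

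The reads of the sparse genes came from few cells. Counted from the highest cell down, 50% of the Spink8 reads lay in 7 cells, against 48 cells each for Kcnn3 and Stard5. For Asb10 the number was 6, for Slc2a9 8, for Efhd1 12, for Umodl1 20, for Hic1 25 and for Mfsd12 35. A single cell gave 13.3% of the Asb10 reads and 2.14% of the Kcnn3 reads. With each cell thinned to 40000 reads, the shares with a read were 64.8% for Kcnn3, 61.4% for Stard5, 54.6% for Mfsd12, 46.5% for Hic1, 31.5% for Umodl1, 16.9% for Efhd1, 9.30% for Slc2a9, 9.01% for Spink8 and 8.17% for Asb10.

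A read in a well does not always mean that its cell held the transcript. Reads of Pth, the hormone of the parathyroid, were found in 66.8% of the 313 E12.5 cells that were not Chga-high, at 0.411 to 1.82% of the plate's level, while a molecule in the first run was found in 5 of these cells (1.60%). In the other direction, reads of Psmb11, a proteasome subunit of cortical TEC, were found in 19.0% of the 42 Chga-high cells and molecules in none. These reads stood at 0.0610 to 0.407% of the plate's level. Shares below are therefore shares of cells with a molecule in the first run unless reads are named. A level under about 2% of the plate's level, the upper end for Pth, is read as background. By Psmb11, a TEC gene in Chga-high cells, that limit would be lower.

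The E12.5 cells were divided by limits on 3 genes that are not members. Chga-high cells had at least 2000 CPM of Chga, and there were 42 of them (6 to 15 per plate). Krt5-high cells had at least 1000 CPM of Krt5 and were not Chga-high (39 cells, 8 to 12 per plate). Foxn1-expressing cells had at least 20 CPM of Foxn1 and were neither (190 cells, 43 to 57 per plate). The remaining cells numbered 84, with 16 to 27 per plate. The limit on Chga fell in a gap, with no cell between 687 and 4952 CPM. That on Krt5 did not: 44 of 313 cells lay within 2-fold of it, so the Krt5-high cells are the upper end of a range. For Foxn1, 21 of 313 cells lay within 2-fold of the limit. Depth differed, with a median of 144085 reads and 4288 molecules (both runs added) per Chga-high cell, 209514 and 7594 per Krt5-high cell, 180891 and 6768 per Foxn1-expressing cell and 160374 and 5264 per remaining cell.

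The markers of the parathyroid and of TEC went with the names of the classes. Pth had a molecule in 41 of 42 Chga-high cells and Gcm2, the master regulator of the parathyroid, in 32, and the median over these cells was 10628 CPM for Pth. Outside them Gcm2 had a molecule in 2 of 313 cells. Prss16 had a molecule in 170 of 190 Foxn1-expressing cells and in 1 Chga-high cell, with medians over cells of 888 and 0 CPM. The Krt5-high cells also carried TEC genes, with Prss16 in 33 and Foxn1 in 22 of 39 cells, and they held Krt17 in 22 cells and Krt19 in 14. The claudins Cldn3 and Cldn4, also listed as markers of medullary TEC progenitors, were in Chga-high cells too. Cldn3 was in 7 Krt5-high and 11 Chga-high cells, with means of 46.1 and 132 CPM. Cldn4 was in 17 Krt5-high and 14 Chga-high cells, with means of 269 and 175 CPM. Prss16 was in 51 of the 84 remaining cells, and the median of Ccl25 was 756 CPM there against 3685 CPM in the Foxn1-expressing cells, so these are not a class without TEC genes. The transcript of Plet1, the sorted protein, had a molecule in 4 Chga-high, 8 Krt5-high, 13 Foxn1-expressing and 5 remaining cells, while Epcam was in 40, 30, 140 and 54. Of 7 blood markers 4 were at 0 in Chga-high cells, where their sum ranged from 0 to 273 CPM per plate, against 0 to 13.8 CPM in the other classes. The reads of the other 3 (Ptprc, Laptm5 and Coro1a) all lay on 1 plate, and each had a molecule in 1 of 42 cells. The sum of 6 mesenchyme markers was 32.5 to 105 CPM in Chga-high cells, against 0 to 65.9 CPM in the others. In Chga-high cells its means were 45.8 CPM for Prrx2 (a molecule in 7 of 42 cells), 17.1 CPM for Pdgfra (2 cells), 2.89 CPM for Twist1 (2 cells), 1.16 CPM for Col1a2, 0.126 CPM for Col1a1 and 0 for Col3a1. In Foxn1-expressing cells that of Col1a2 was 9.17 CPM and the other 5 had means of 0.796 CPM or less. The sum of 6 neural markers ran the other way, 3.52 to 7.55 CPM in Chga-high cells with 2 of the 6 at 0, against 697 to 955 CPM in Foxn1-expressing cells. The part of these in the results was not tested.

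The 9 genes parted by class. Spink8 was found in the Chga-high cells. The other 8 were lower there than in the Foxn1-expressing cells on every one of the 4 plates, and for all 9 genes the plates of both classes did not overlap (exact permutation test, two-sided, p = 0.0286 for each gene, the smallest that 4 against 4 plates can give). This test was lost for Slc2a9 with the limits lowered (exact permutation test, p = 0.143), and for no other gene or setting tried. Of 9776 genes tested, the plates of 11.4% did not overlap with Chga-high lower, and those of 3.97% with Chga-high higher. By edgeR's quasi-likelihood test with Benjamini-Hochberg adjustment, 6 of the 9 were called lower in Chga-high cells, where 2.36% of all genes were, and 1 was called higher, where 0.839% were. The median log2 fold change was -5.87 over the 9 genes and -0.20 over all genes tested. These shares and medians do not test the 9 as a set. Efhd1, Slc2a9 and Asb10, with no read in Chga-high cells, were chosen and kept by the filter through the other classes alone. The choice used whole plates, to which Foxn1-expressing cells gave 190 of 355 cells and Chga-high cells 42. It may therefore lean to the larger class. Mfsd12 (adjusted p = 0.0503) and Asb10 (adjusted p = 0.0899) did not pass, although Mfsd12 did under 8 of 13 other settings and Asb10 under 5 of 12 (adjusted p 0.0116 to 0.230 over the 12). Both sums of a plate come from 1 library, and with the plate as a block in the fit Mfsd12 passed (adjusted p = 0.0350 by edgeR), which made 8 of 9. The p values measure the spread between plates, since the labels do not say which embryos each plate holds.

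**Figure D2:**
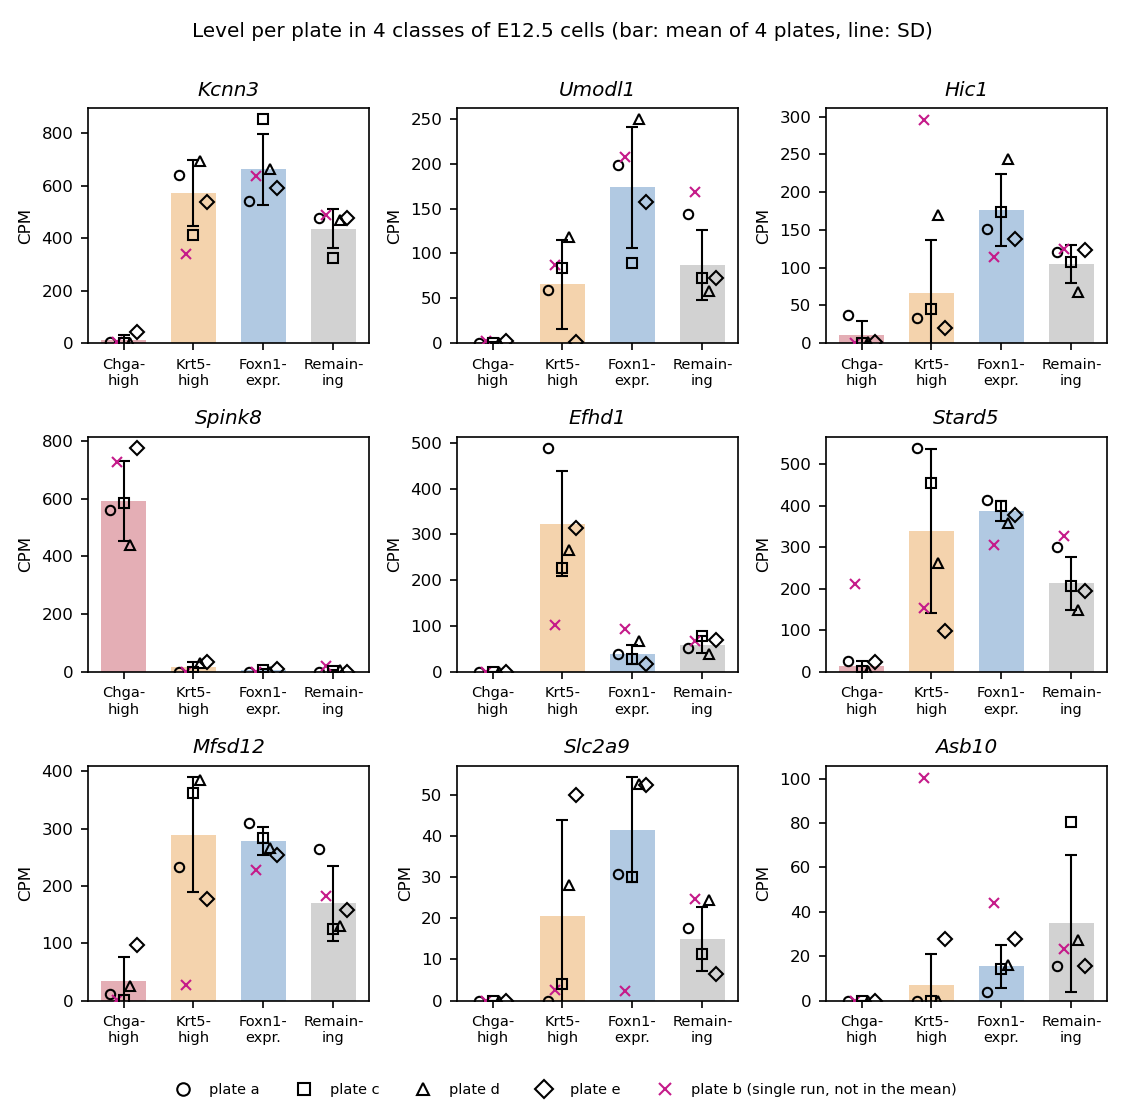
Level of each of the 9 genes in CPM (vertical axis, linear, its own scale per gene) in the 4 classes of E12.5 cells. Bars are the mean of plates a, c, d and e and lines their SD. Magenta crosses are plate b, which is not in the mean. Spink8 lies between 440 and 775 CPM in Chga-high cells and at 34.6 CPM or less elsewhere on these plates, Efhd1 is highest in Krt5-high cells, and the 8 genes other than Spink8 lie lower in Chga-high cells than on any plate of the Foxn1-expressing cells.

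Spink8, the protease inhibitor, was the 1 gene of the 9 that was higher in the Chga-high cells. In Chga-high cells it was measured at 562, 585, 440 and 775 CPM on plates a, c, d, e, a mean of 590.5 ± 138 CPM (SD, n = 4 plates). In Foxn1-expressing cells of the same plates it was at 0.118, 7.86, 0.103 and 10.4 CPM. Every Chga-high sum lay far above every other sum. The log2 fold change was 6.80 with an SE of 1.77 (adjusted p = 0.0394, edgeR), and it was higher on 4 of 4 plates. Plate b gave 725.5 CPM in its 13 Chga-high cells, 0.374 CPM in its Foxn1-expressing cells and 20.6 CPM in its remaining cells. A molecule was found in 24 of 42 Chga-high cells (57.1%, exact interval 41.0 to 72.3%), in 2 of 190 Foxn1-expressing, 3 of 39 Krt5-high and 1 of 84 remaining cells. Spink8 was thus not detected in every Chga-high cell: the median level over them was 249.8 CPM, and 28 had a read. Of the 30 E12.5 cells with a molecule of Spink8, 16 had 1. Whether Chga-high cells without a molecule lacked the transcript was not tested. Without any one of the 4 plates the adjusted p lay between 0.0737 and 0.139, over the threshold (1.4e-08 to 0.0487 under the other settings), while the log2 fold change stayed between 6.47 and 7.47.

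Kcnn3, Stard5, Mfsd12, Hic1 and Umodl1 were present in Foxn1-expressing, Krt5-high and remaining cells and low in Chga-high cells. In Foxn1-expressing cells Kcnn3 was measured at 541, 851, 663 and 591 CPM on plates a, c, d, e, and in Chga-high cells at 3.52, 1.81, 1.26 and 42.4 CPM. The Chga-high sums lay between 0.225 and 8.005% of the level of the whole plate. Only that of plate e was above the background of about 2% set from Pth, which is looser than the level of Psmb11. The log2 fold change was -5.87 with an SE of 0.88 (adjusted p = 4.3e-04, edgeR), and -8.42 without plate e. A molecule of Kcnn3 was found in 126 of 190 Foxn1-expressing cells (66.3%) and in 1 of 42 Chga-high cells (2.38%, exact interval 0.0603 to 12.6%). With the limit on Chga lowered to 500 CPM, which moved 4 cells into the class and changed the other limits too, the log2 fold change was -2.59 and the call was lost (adjusted p = 0.0967, in a range of 1.7e-11 to 0.0967 over all settings).

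Stard5 was measured at 413, 399, 359 and 377 CPM in Foxn1-expressing cells and at 25.1, 1.36, 2.52 and 23.7 CPM in Chga-high cells. Its 4 Foxn1-expressing sums lay close together, with a mean of 387 ± 23.8 CPM. Stard5 had a log2 fold change of -5.01 with an SE of 0.77 (adjusted p = 5.8e-04, edgeR). Molecules of Stard5 were in 65.8% of the Foxn1-expressing cells and in 1 of 42 Chga-high cells. Plate b was an exception, with 211 CPM in its Chga-high cells, 2 of which held a molecule, against 306 CPM in its Foxn1-expressing cells, and with plate b added the log2 fold change was -3.14 (adjusted p = 0.0242, edgeR). Mfsd12 was measured at 309, 283, 266 and 254 CPM in Foxn1-expressing cells and at 11.1, 0.453, 25.8 and 96.6 CPM in Chga-high cells. It had the smallest log2 fold change of the 9, -3.12 with an SE of 0.85, and it was lower on 4 of 4 plates. On plate e its Chga-high level was 44.4% of that of the whole plate, and without plate e the adjusted p was 0.0203 (edgeR). Over all settings that of Mfsd12 ranged from 1.0e-04 to 0.228.

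Hic1, the repressor, was measured at 151, 174, 244 and 138 CPM in Foxn1-expressing cells and at 37.7, 0.453, 1.89 and 0.986 CPM in Chga-high cells. The value of plate a came from 75 reads in 1 cell, the only Chga-high cell with a molecule. Its log2 fold change was -4.28 with an SE of 1.12 (adjusted p = 0.0412, edgeR). Hic1 was called under 6 of 12 other settings, and the losses included those without plate c, d or e (adjusted p 0.152 to 0.187, edgeR). Without plate a the log2 fold change was -7.48 (adjusted p = 0.00266, edgeR). Molecules of Hic1 were in 99 of 190 Foxn1-expressing cells (52.1%). Umodl1 was measured at 199, 89.8, 250 and 157 CPM in Foxn1-expressing cells and at 0.503, 0, 0 and 1.97 CPM in Chga-high cells. The Chga-high values were at most 1.78% of the plate's level. All were under the limit set from Pth, with the highest above the 0.407% of Psmb11. The log2 fold change of Umodl1 was -8.46 with an SE of 1.38 (adjusted p = 9.9e-04, edgeR), and it was called under all 13 other settings. A molecule was found in 73 of 190 Foxn1-expressing cells (38.4%) and in none of 42 Chga-high cells, which allows a share of cells with a molecule of up to 7.14%.

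These 5 genes were put together for their low level in Chga-high cells, so the counts of them per cell are a description. At least 1 of the 5 had a molecule in 185 of 190 Foxn1-expressing cells (97.4%), and all 5 did in 15. In Krt5-high cells at least 1 was found in 30 of 39 (76.9%), and in remaining cells in 63 of 84 (75.0%). In Chga-high cells it was 6 of 42 (14.3%), and in the cells of E10.5, where the choice of the genes sets the value, 46 of 356 (12.9%). At least 3 of the 5 were found in 54.7% of Foxn1-expressing cells, in 38.5% of Krt5-high cells, in 34.5% of remaining cells and in no Chga-high cell. With each cell thinned to 40000 reads, the share of cells with a read was 76.8% against 9.52% for Kcnn3 (Foxn1-expressing against Chga-high cells), 73.2% against 14.3% for Stard5, 69.5% against 9.52% for Mfsd12, 61.1% against 7.14% for Hic1 and 44.7% against 2.38% for Umodl1. Thinning matched the reads of the cells and not their molecules, of which Chga-high cells had fewer.

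**Figure D3:**
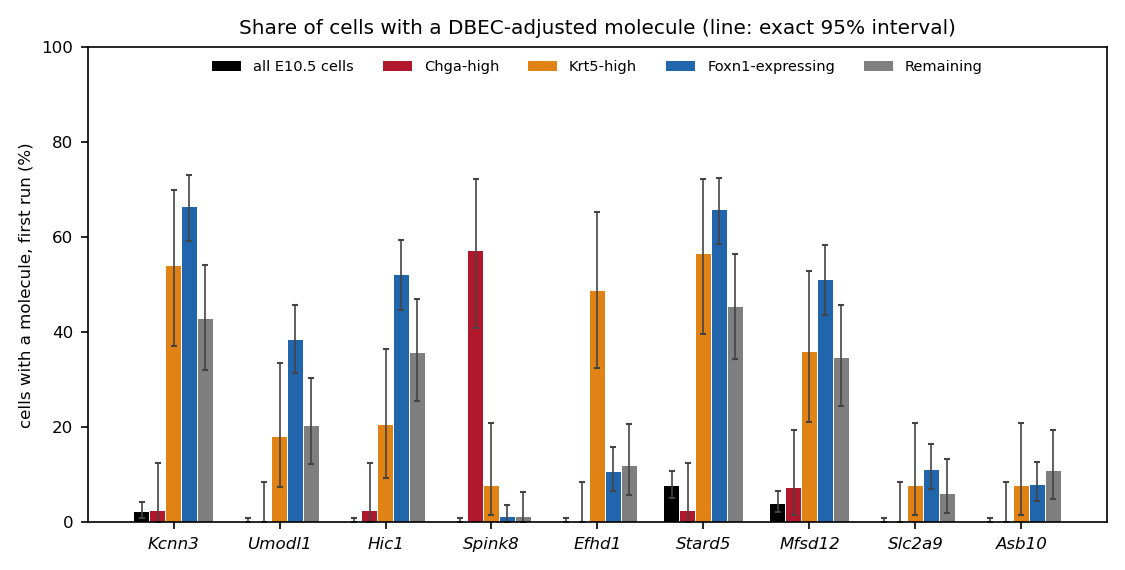
Share of cells (vertical axis, percent) with a molecule of each gene in the first run, for all E10.5 cells and the 4 classes of E12.5 cells. Lines are exact 95% intervals, which cover counting error only. Spink8 is found in 57.1% of Chga-high cells and Efhd1 in 48.7% of Krt5-high cells, while Kcnn3, Umodl1, Hic1, Stard5 and Mfsd12 are highest in Foxn1-expressing cells.

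Since these genes were present in the cells that express Foxn1, their promoters were searched for the core letters bound by FOXN1, GACGC on either strand (GCGTC on the other). Promoters of 250 bases before to 50 after the start of transcription were taken from RefSeq (GRCm38.p6), and 8 of the 9 genes matched, with 2 promoters for Hic1 and none for Spink8. The letters were found in the promoters of Stard5, Mfsd12, Efhd1 and Slc2a9 and in none of those of Kcnn3, Umodl1, Hic1 and Asb10. Of all 32851 promoters in the table, 27.2% held them. A core bound by GCM factors, TGCGGG on either strand, was searched as well and shares no letters with a match of the other in these promoters. It was found in those of Kcnn3 and Efhd1 and in 1 of the 2 of Hic1, beside 13.4% of all promoters. The promoters of the 3 genes found in most cells are shown, with a match of the FOXN1 core in capitals. They are those of Kcnn3 (chr3:89519914-89520213, plus strand), Stard5 (chr7:83631767-83632066, plus strand) and Mfsd12 (chr10:81357241-81357540, plus strand), each written 5′ to 3′.
Kcnn3: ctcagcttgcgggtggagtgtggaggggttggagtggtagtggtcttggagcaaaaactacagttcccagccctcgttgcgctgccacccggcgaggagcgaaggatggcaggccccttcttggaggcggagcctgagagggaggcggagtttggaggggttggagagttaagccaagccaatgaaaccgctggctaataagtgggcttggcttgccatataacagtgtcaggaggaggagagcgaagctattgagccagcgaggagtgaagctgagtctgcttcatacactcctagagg
Stard5: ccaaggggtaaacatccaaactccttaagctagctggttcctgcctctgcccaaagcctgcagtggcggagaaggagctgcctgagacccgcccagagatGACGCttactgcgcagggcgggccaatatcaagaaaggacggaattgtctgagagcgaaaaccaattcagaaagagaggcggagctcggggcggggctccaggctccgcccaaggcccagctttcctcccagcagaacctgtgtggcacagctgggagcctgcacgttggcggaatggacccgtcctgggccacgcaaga
Mfsd12: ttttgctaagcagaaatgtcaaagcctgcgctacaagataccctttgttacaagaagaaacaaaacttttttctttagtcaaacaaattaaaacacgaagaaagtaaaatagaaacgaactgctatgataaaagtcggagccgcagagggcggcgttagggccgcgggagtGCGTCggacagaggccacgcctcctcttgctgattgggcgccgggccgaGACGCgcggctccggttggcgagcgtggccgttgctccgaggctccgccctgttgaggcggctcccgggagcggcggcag
The Stard5 promoter held 1 match, beginning 150 bases before the start. That of Mfsd12 held 2, beginning 79 bases before the start on the minus strand and 30 bases before it on the plus strand. A match of 5 letters is a description of the sequence and not a binding site, and its absence from a window says nothing of FOXN1 or GCM2.

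Efhd1, the mitochondrial calcium-binding protein, had its highest level in Krt5-high cells and no read in Chga-high cells. None of the 42 Chga-high cells had a read, nor had the 13 of plate b. It was measured at 488, 227, 266 and 314 CPM in Krt5-high cells of plates a, c, d, e, a mean of 323 ± 115 CPM, and at 38.4, 28.5, 67.2 and 18.0 CPM in Foxn1-expressing cells, a mean of 38.0 ± 21.2 CPM. These did not overlap (exact permutation test, two-sided, p = 0.0286, the smallest possible), and Krt5-high was higher on 4 of 4 plates. Of all genes tested, the plates of 1.23% did not overlap with Krt5-high higher. The log2 fold change was 3.16 with an SE of 0.63, but the call was not made over all genes (unadjusted p = 1.2e-04, adjusted p = 0.201, edgeR). It was made by DESeq2 (adjusted p = 2.7e-07), on molecules (adjusted p = 0.00122, edgeR) and with the limits raised (adjusted p = 0.0320, edgeR), but under no other setting, where the adjusted p of Efhd1 was 0.0614 to 1. A molecule was found in 19 of 39 Krt5-high cells (48.7%, exact interval 32.4 to 65.2%), 20 of 190 Foxn1-expressing cells (10.53%, 6.55 to 15.8%) and 10 of 84 remaining cells (11.9%). On plate b the values lay close together, 103 CPM in 6 Krt5-high cells and 93.1 CPM in 35 Foxn1-expressing cells.

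Against Foxn1-expressing cells the level of Efhd1 was lower in Chga-high cells (adjusted p = 2.4e-05, edgeR). It was called under all 13 other settings. With 3 reads over the whole class taken as the limit, its level was at least 87.4-fold lower. Reads include PCR copies, so this limit covers counting error only. No molecule in 42 Chga-high cells allows a share of cells of up to 7.14%, against 10.53% of Foxn1-expressing cells. The limit in cells is thus far looser than the one on reads.

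Slc2a9 and Asb10 were sparse. Slc2a9, the urate transporter, had no read in Chga-high cells on any plate and was measured at 30.8, 30.1, 52.5 and 52.4 CPM in Foxn1-expressing cells. With the same limit on reads, its level was at least 96.4-fold lower in Chga-high cells (adjusted p = 0.0159, edgeR). A molecule was found in 21 of 190 Foxn1-expressing cells, 5 of 84 remaining cells and 3 of 39 Krt5-high cells. None of 42 Chga-high cells had one, which allows a share of cells with a molecule of up to 7.14%, against 11.1% of Foxn1-expressing cells. Counted in cells, the limit is thus far looser than the one on reads. The call was lost without plate c, d or e (adjusted p 0.0791 to 0.136). On plate b its level was 2.24 CPM in Foxn1-expressing and 24.8 CPM in remaining cells.

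Asb10, the ubiquitin ligase adaptor, also had no read in Chga-high cells. It was at 3.66, 14.1, 16.1 and 27.7 CPM in Foxn1-expressing cells, at least 36.0-fold more with the same limit on reads. Counted in cells, up to 7.14% of Chga-high cells with a molecule are allowed, against 7.89% of Foxn1-expressing cells. A molecule was found in 15 of 190 Foxn1-expressing cells and 9 of 84 remaining cells. In the remaining cells its level was 15.4, 80.2, 27.5 and 15.8 CPM, which overlapped with that of the Foxn1-expressing cells. In 3 of 4 Krt5-high sums it was 0.

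**Figure D4:**
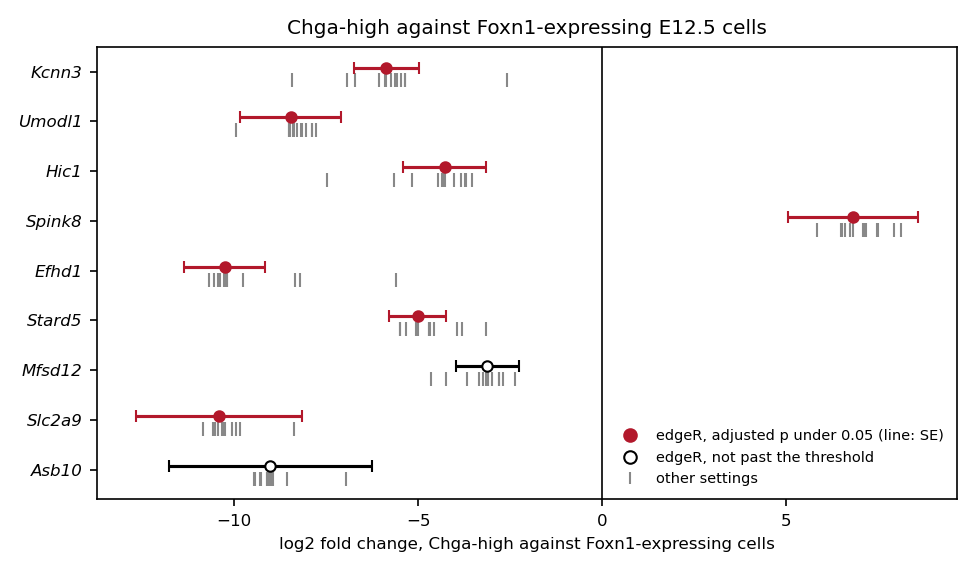
Log2 fold change of each gene between Chga-high and Foxn1-expressing E12.5 cells (horizontal axis). Circles are the values from edgeR with an SE derived from the F statistic of the test, filled red where the adjusted p is under 0.05. Grey ticks are the values under the other settings. All lie on the same side of 0 for each gene, with Spink8 alone above 0. The values of Efhd1, Slc2a9 and Asb10, which have no read in Chga-high cells, depend on the prior count of the fit.

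Between Krt5-high and Foxn1-expressing cells the plates of the other 8 members overlapped, and none separated with Krt5-high lower, where 6.96% of all genes did. In the exact permutation test Umodl1 passed once plate b was added (p = 0.0159) and Hic1 passed on molecules (p = 0.0286), both lower in Krt5-high cells, and neither did under the other settings. No member was called, where 0.0102% of genes were called higher and 0.0307% lower (edgeR), 657 genes had an unadjusted p under 0.05, and DESeq2 called 129 genes, of which 1 was a member, Efhd1. The log2 fold change was -0.12 for Kcnn3 (SE 0.71), -0.18 for Stard5 (SE 0.65) and 0.13 for Mfsd12 (SE 0.78), and SEs of this size leave room for a difference in either direction. Mfsd12 stood at 232, 363, 384 and 177 CPM in Krt5-high cells, on both sides of its Foxn1-expressing values. Umodl1 was lower on 4 of 4 plates, with 58.7, 83.9, 118 and 0.899 CPM in Krt5-high cells (log2 fold change -1.37, SE 0.96, adjusted p = 1, edgeR), but its plates overlapped. Hic1 was lower on 4 of 4 plates as well, at 33.5, 45.2, 170 and 19.3 CPM (log2 fold change -1.28, SE 0.99), while plate b gave 296 CPM in 6 cells. With the limits raised, which left 2 Krt5-high cells on plate d and so dropped that plate from the class, Umodl1 was called lower in Krt5-high cells (log2 fold change -7.34, adjusted p = 0.0221, edgeR), while under all other settings its adjusted p was 0.526 or more.

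In the remaining cells no member was called against the Foxn1-expressing cells, where edgeR called 0% of genes higher and 0.0205% lower (209 genes had an unadjusted p under 0.05, and DESeq2 called 19). The plates of 4 members did not overlap, all with the remaining cells lower: Kcnn3, Hic1, Stard5 and Slc2a9 (exact permutation test, two-sided, p = 0.0286 for each), where 2.91% of all genes did so. Kcnn3 was at 475, 324, 467 and 477 CPM in the remaining cells, and Stard5 at 302, 208, 150 and 195 CPM. Hic1 was at 120, 108, 67.7 and 123 CPM and Slc2a9 at 17.7, 11.4, 24.5 and 6.48 CPM. These separations depended on where the limits lay: with the limits raised none of the 4 had a p under 0.05 (exact permutation test, p between 0.0571 and 0.914), and Kcnn3 was then higher by 6.78 CPM in the remaining cells. With the limits lowered Hic1 and Stard5 kept p = 0.0286, while Kcnn3 (p = 0.457) and Slc2a9 (p = 0.171) did not, and Slc2a9 had p = 0.135 with plate b (exact permutation test). When molecules were used, Kcnn3 alone kept p = 0.0286 (exact permutation test), and the others had p between 0.0571 and 0.371. Umodl1 was lower on 4 of 4 plates without separating (58.5 to 145 CPM), and so was Mfsd12 (124.8 to 264 CPM).

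The genes whose cell-to-cell pattern was most like that of a member were then listed, from 7200 genes with a read in at least 10% of the 355 E12.5 cells. The measure was Pearson's r of log2(CPM + 10) with plate means removed, and it is a description, because the cells of a plate share a library and a depth. For Spink8 these were Fam20a (r = 0.68), Pth (0.68) and Ibsp (0.67), and among the 313 cells that were not Chga-high no value was above 0.063. For Umodl1 they were Psmb11 (0.42), Ccl25 (0.42) and Fn1 (0.36). For Mfsd12 they were Ccl25 (0.47), Fn1 (0.45) and the transcriptional regulator Hes6 (0.43), and for Stard5 the phospholipid transfer protein Pltp (0.41), Ccl25 (0.40) and Pdlim1 (0.39). Kcnn3 was most like Pdlim1 (0.44), Psmb11 (0.42) and Pltp (0.41). Without the Chga-high cells these were lower, between 0.23 and 0.40 for the genes named for Umodl1, Mfsd12, Stard5 and Kcnn3.

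Efhd1 was most like keratin 19 (Krt19, r = 0.44), Krt5 (0.35) and Zfp750 (0.34), a regulator of epidermal differentiation, and these held without the Chga-high cells (0.43, 0.32 and 0.33). Hic1 had no close likeness, with Igfbp2 (0.30), Hes6 (0.28) and Cnn3 (0.28) first. Slc2a9 was most like Auh (0.29), Hilpda (0.23) and Fermt1 (0.23). Correlations this weak between sparse counts are no finding. Among the members, the 36 pairs ranged in r from -0.21 to 0.28 in the 313 cells that were not Chga-high, with a median of 0.04. The highest were Kcnn3 with Mfsd12 (0.28) and Umodl1 with Mfsd12 (0.26), and the lowest was Efhd1 with Mfsd12 (-0.21).

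The families of the 9 genes were counted next, 103 listed relatives in 9 lists, of which 67 had over 2 CPM in at least 2 cells. Of 52 tested between the stages, 1 was called higher at E12.5 and 2 lower by edgeR, beside 3.8% and 2.44% of all genes. Mfsd10, another transporter of the major facilitator superfamily, rose from 53.8 ± 8.19 to 219 ± 80.7 CPM (SD, n = 4 plates each, log2 fold change 1.90, SE 0.29, adjusted p = 0.00235). Asb4, a relative of Asb10, fell from 10.2 ± 5.75 CPM to 0.0152 ± 0.0305 CPM (adjusted p = 0.00248). Pctp, a START domain carrier of phosphatidylcholine, fell from 28.5 ± 9.55 to 5.17 ± 1.95 CPM (log2 fold change -2.54, SE 0.57, adjusted p = 0.0205). Of 41 relatives tested between Chga-high and Foxn1-expressing cells, 1 was called, Mfsd10 again, lower in Chga-high cells at 53.5 ± 29.4 against 257 ± 136 CPM (adjusted p = 0.0159, edgeR). Of the same 41, none was called in Krt5-high or remaining cells.

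By list, none was called between the stages among 4 of 8 calcium-activated potassium channels tested, 1 of 13 zona pellucida proteins, 1 of 9 Spink inhibitors, 7 of 8 genes of Efhd and mitochondrial calcium uptake, 7 of 11 Slc2a transporters and all 3 Hic and Ctbp genes. For the Stard carriers 1 of 7 tested was called, for the Mfsd transporters 1 of 11 and for the Asb and Cul5 genes 1 of 11.

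The 9 genes lie on 8 chromosomes. In GRCm38 with the GENCODE vM21 genes, a later release than the one counted, their spans are chr3:89520164-89675132 for Kcnn3, chr17:30954640-31010710 for Umodl1, chr11:75164565-75169519 for Hic1, chr9:109812280-109826633 for Spink8, chr1:87264363-87310839 for Efhd1, chr7:83631959-83653127 for Stard5, chr10:81357491-81366225 for Mfsd12, chr5:38349273-38503143 for Slc2a9 and chr5:24532697-24540978 for Asb10. Hic1, Slc2a9 and Asb10 are on the minus strand. No other gene of that annotation overlaps Kcnn3, Hic1, Spink8, Slc2a9 or Asb10. Umodl1 and Efhd1 overlap antisense RNAs, Umodl1 also holds the miRNA gene Gm24026 and Stard5 the gene model Gm45838 on their own strand, the 3′ part of Stard5 overlaps Il16 on the other strand, and Mfsd12 overlaps 4930404N11Rik on the other strand and touches Fzr1. Whether the counting used strand is not given in the sources used here, so reads shared with these partners cannot be told apart. Il16 itself was at 0.853 CPM or less on every plate, and at 0 to 7.05 CPM in Chga-high cells and 0 in Foxn1-expressing cells. Fzr1 was at 77.7 to 125.4 CPM on the E12.5 plates, at 70.8 to 130 CPM at E10.5, and at 18.6 to 217 CPM in Chga-high cells.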

How the data were processed

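Single cells of wild type C57BL/6 embryos were sorted into 96-well plates, and libraries were made with the BD Precise whole transcriptome assay. The authors' counts are raw reads per gene and well: per the file headers, reads were aligned to GRCm38.p6 and counted on GENCODE vM18 by the BD Precise pipeline 2.0, whereas the submitters' processing notes list GRCm38.p5, STAR, HTSeq and FastQC. The value of each plate in the deposited table is the sum of its first sequencing run and 1 repeat, which held for every gene and well (0 values differed). Molecule counts were deposited per run, after the pipeline's correction of molecular indices. Tests on molecules used the sum of both runs, in which a molecule read in both is counted in each. Kcnn3 on E12.5 plate a had 71 molecules in the first run and 147 in both. The strand setting of the counting is not given in the sources used here. Reads include PCR copies, so intervals and floors (3 counts) cover counting error only.

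Cells with 40000 to 400000 protein-coding reads, 500 to 5000 genes and at most 50% mitochondrial reads were kept (20000 to 200000 reads for plate b of E12.5, whose single run was used). Cells were not clustered: E12.5 classes were set by limits on Chga, Krt5 and Foxn1. Reads were summed per plate and class where a plate had at least 3 such cells, so that plates and not cells were the replicates. All protein-coding genes passing edgeR's filterByExpr were tested with edgeR 4.0.16 (quasi-likelihood, TMM, R 4.3.3), adjusted by Benjamini-Hochberg and called at an adjusted p under 0.05, with all classes in 1 fit. The SE given with an edgeR log2 fold change is its absolute value divided by the square root of the test's F statistic. Single genes were also compared by the two-sided exact permutation test over plate sums (scipy 1.17.1). The scripts were tested on simulated data. Alternatives were DESeq2 1.42.0, no filter, the plate as a block, leaving out each plate, molecules, only the classes compared, and lowered (Chga 500, Krt5 500, Foxn1 any read) or raised (5000, 2000, 100) limits. Adding plate b, and the alternatives of the permutation test, were chosen after seeing the data.

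The 9 genes, the marker lists and the lists of relatives were chosen with earlier results of these data known. Named besides the 9 genes are relatives that passed the threshold and the 3 genes most correlated with each (those for Asb10 are not reported here). Plate letters did not pair the stages, since the deviations of same-lettered plates from their group means correlated by -0.01 to 0.07. The classes of a plate share 1 library and correlated by 0.02 to 0.11. The labels do not say whether plates hold separate litters. Promoter sequences came from RefSeq on GRCm38.p6. Coordinates of genes came from GENCODE vM21 on GRCm38, since vM18 was not used here.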

Additional observations from a re-analysis of the deposited data

Results flagged for a closer look

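In groups of 4 plates, 1 plate lay far from the other 3 in 8 of 49 groups tested. No chance rate is set beside this number, since any value is flagged where the other 3 plates are at 0. Kcnn3 on E10.5 plate a was at 13.4 CPM, from 168 reads in 2 cells, and the other plates lay between 4.73 and 5.82 CPM. Hic1 on E10.5 plate b was at 0.226 CPM, which is 3 reads, with none on the other plates. Hic1 on E12.5 plate d was at 170 CPM, and the others lay between 109 and 117 CPM. In Chga-high cells, Kcnn3 was at 42.4 CPM on plate e (43 reads in 4 cells, others 1.26 to 3.52 CPM), and Hic1 at 37.7 CPM on plate a (75 reads in 1 cell, others 0.453 to 1.89 CPM). In the remaining cells, Kcnn3 was low on plate c at 324 CPM (others 467 to 477 CPM), and Umodl1 was high on plate a at 145 CPM (others 58.5 to 72.5 CPM). In Krt5-high cells, Asb10 was at 27.9 CPM on plate e, from 62 reads in 3 cells, and at 0 on the others. The cause of these values was not tested.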

How the results depend on the processing

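Between Chga-high and Foxn1-expressing cells every member kept its direction under all settings in which it was tested (Slc2a9 and Asb10 were not tested on molecules). Of 313 genes called (26.2% higher), the number was 814 with DESeq2, 201 with lowered limits, 553 with only the classes compared, 470 with plate b, 574 with plate b and the plate as a block, and 139 to 170 without 1 plate. On molecules 45.7% of the calls were higher. The median of all genes moved by 0.32 with DESeq2, 0.19 on molecules and -0.24 with the replicate block, and by -0.34 with plate b and the block. Called members numbered 7, but 8 with DESeq2, with no filter or with the block, 9 with plate b (with or without the block), 6 with lowered or raised limits, and 4 to 6 without 1 plate (6 without a, 4 without c, 4 without d, 5 without e). Hic1 lost its call with limits lowered (adjusted p = 0.0511, edgeR) or raised (0.0550) and with only the classes compared (0.0762), and DESeq2 gave it no adjusted p. Slc2a9 lost it with limits lowered (0.0661). Asb10 gained one with DESeq2 (0.0116), lowered limits (0.0312), only the classes compared (0.0437) and plate b (0.0273, or 0.0341 with the block). The range over all settings was 1.4e-04 to 0.187 for Hic1 and 5.8e-06 to 0.136 for Slc2a9.

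Of 4 genes called between Krt5-high and Foxn1-expressing cells, the number was 129 with DESeq2, 2 with lowered and 18 with raised limits, 33 on molecules, 1 with only the classes compared, 2 with the replicate block and 0 to 2 without 1 plate. Members called there were 1 with DESeq2, 2 with raised limits and 1 on molecules. Signs turned for Kcnn3 (log2 fold change 0.072 with lowered limits, -0.29 to 0.10 without 1 plate), Spink8 (-0.98, raised), Slc2a9 (0.66, lowered), Asb10 (0.026, raised), Stard5 (-0.48 to 0.15 without 1 plate) and Mfsd12 (-0.97 raised, -0.12 molecules, -0.10 with plate b, -0.33 with plate b and block, -0.10 to 0.28 without 1 plate). Mean differences in CPM turned for Mfsd12 (-14.6 on molecules, -31.8 with plate b), Slc2a9 (18.2, lowered) and Asb10 (4.52, with plate b). Of 2 genes called between remaining and Foxn1-expressing cells, the number was 19 with DESeq2, 0 with raised limits, 1 on molecules, 1 with only the classes compared, 1 with the block and 1 to 2 without 1 plate. Signs turned for Kcnn3 (0.072 and 6.78 CPM, raised), Spink8 (0.50 and 2.11 CPM with plate b, 0.65 with the block too, -3.40 to 0.28 without 1 plate) and Efhd1 (-1.0005 and -25.4 CPM, lowered). Mfsd12 did not turn, being lower in remaining cells in the main setting too (exact permutation test, p = 0.0571). Its p in that test fell under 0.05 with raised limits (p = 0.0286) and with plate b (p = 0.0238). None of these turned fold changes passed the threshold, and the cause was not tested. Between stages, 718 calls became 1269 with DESeq2 and 215 with the replicate block, fitted on fewer plates. The replicate block changed no other call of a member than that of Mfsd12. Most cells with Slc2a9 or Asb10 held 1 molecule, and whether this limits their shares was not tested.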

Other observations

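Foxn1-expressing E12.5 cells were also divided by whether they had a molecule of Top2a in the first run, a topoisomerase of dividing cells (58 with and 132 without, at least 12 per plate in each). The split was made after the data were seen and is given as values with no test. No share over all genes and no depth of the groups is set beside it. A lower level is therefore not read as particular to these genes. Mfsd12, the lysosomal transporter, was lower in the cells with Top2a on 4 of 4 plates, with a mean of 180 ± 18.0 CPM (SD, n = 4 plates) against 340 ± 62.8 CPM. Stard5 was lower on 4 of 4 plates as well, at 333 ± 65.3 against 415 ± 26.2 CPM, and so was Asb10, at 3.01 ± 2.91 against 22.0 ± 13.4 CPM. Kcnn3 and Umodl1 were lower on 3 of 4 plates. Hic1 was lower on 1 of 4, at 189 ± 42.5 CPM with Top2a and 167 ± 53.3 CPM without. Efhd1 was also lower on 1 of 4, at 59.2 ± 53.4 CPM with and 29.3 ± 27.6 CPM without. Slc2a9 was lower on 2 of 4 plates and Spink8, near 0 in these cells, on 3 of 4.

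The 8 E10.5 cells with a molecule of Kcnn3 were spread over all 4 plates. Of these 8, 4 had a summed level of the neural markers Tubb3, Nefl and Nefm of at least 1000 CPM, as did 108 of all 356 E10.5 cells (30.3%). Of the 27 with Stard5 this held for 5, and of the 14 with Mfsd12 for 1.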
